A study of Mus musculus with 9 samples.

Results

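Notch signalling in isolated brain microvessels was followed through 10 genes: the receptors Notch1, Notch3 and Notch4, the ligands Dll4, Jag1 and Jag2, and the target genes Hey1, Heyl, Hes1 and Nrarp. They were chosen by name, with earlier results of these data known, and were taken from an expression array of mouse brain samples, where 18194 genes had a probe set of their own and 12009 of these rose above background often enough to be tested. All 10 genes were among the tested ones. They had 21 probe sets in all, and the one brightest on average stands for its gene. Microvascular fragments, short pieces of small vessels, came from brains of NMRI embryos at embryonic day 18.5 and from brains of adults of a mixed C57/SV129 background aged 1 year, of which 1 was female and 2 were male. Brain tissue of NMRI embryos of day 18.5 without the fragments formed the remaining group, called rest of brain here. No allele, treatment or agent is named for any group, and the sex of the embryos, the way fragments were isolated and any pooling of animals are not given in the labels. Each group held 3 arrays that the labels call biological replicates, with no word on litters, and every mean ± SD is over n = 3.

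Notch receptors are cell surface proteins that are cut when a ligand on a neighbouring cell binds them. ADAM proteases and then gamma-secretase release the intracellular part, which joins the DNA-binding protein RBPJ in the nucleus and switches on repressors of the Hes and Hey families and the feedback inhibitor Nrarp. In growing vessels Dll4 on sprouting and arterial endothelium restrains sprouting in neighbouring cells, Notch1 and Notch4 are the receptors of endothelium, and Notch3, the gene mutated in the small vessel disease CADASIL, is the receptor of pericytes and smooth muscle.

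Values are log2 intensities as deposited, so a difference of 1 is a 2-fold difference, and a value under 4 was taken as background. The median over all 45101 probe sets was 3.58 to 3.67 per array. On the arrays of fragments, 12 endothelial markers had a mean of 12.58 to 12.89 in embryos and 12.63 to 12.90 in adults, against 4.56 to 4.91 in rest of brain. Pecam1, Tie1, Emcn, Erg and Sox18 lay under 4 on every array of rest of brain. Cldn5 (mean 7.83), Esam (7.24), Kdr (7.22), Ocln (5.79) and Cdh5 (5.30) lay above 4 on every array there, and Flt1 and Tek on some. Rest of brain thus held signal of some endothelial markers. The mean of 10 neuronal markers was 5.15 to 6.12 in embryonic and 4.13 to 4.79 in adult fragments against 11.37 to 11.62 in rest of brain. Stmn2 (mean 8.98 in embryonic and 10.07 in adult fragments) and Gad1 (7.30 and 4.93) lay above 4 on every fragment array. Tubb3 (8.59), Gap43 (7.98) and Elavl3 (5.28) did so in embryonic fragments, and Gria1 (7.39) in adult ones. The other tested ones lay under 4 on some or all arrays of each kind of fragments. Fragments thus held signal of some neuronal markers. The means of endothelial and neuronal markers were highest in the samples named for vessels and for brain. Microglia and macrophage markers also rose in embryonic fragments against rest of brain, 8 of 8 genes, with means of 11.40, 13.09 and 13.19 on the embryonic fragment arrays, of which replicate 1 was lowest, 9.13 to 9.29 in rest of brain and 12.18 to 12.81 in adult fragments. Their part in the differences from rest of brain was not tested. The bulk samples cannot tell fewer cells of a type from less RNA per cell.

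Sequence before the start site is shown for the 3 genes that were lower in adult than in embryonic fragments without overlap of the arrays (Notch4, Dll4 and Nrarp) and for Jag1, a ligand whose levels overlapped between the ages. RefSeq start sites of GRCm38.p6 were found for 7 of the 10 genes. Hey1, Heyl and Hes1 were the others. Each sequence holds the 250 bases before the start in the direction of transcription, and capitals mark matches to the core of RBPJ sites (TGGGAA), the E-box CACGTG and the related CACGCG, to which Hes and Hey proteins can bind, and the ETS cores CGGAAG and AGGAAG, each on either strand. The ETS cores differ in their first base alone. Windows are chr17:34564045-34564294 (plus strand) for Notch4, chr2:119325534-119325783 (plus strand) for Dll4, chr2:25180508-25180757 (plus strand) for Nrarp and chr2:137116521-137116770 (minus strand) for Jag1.
Notch4: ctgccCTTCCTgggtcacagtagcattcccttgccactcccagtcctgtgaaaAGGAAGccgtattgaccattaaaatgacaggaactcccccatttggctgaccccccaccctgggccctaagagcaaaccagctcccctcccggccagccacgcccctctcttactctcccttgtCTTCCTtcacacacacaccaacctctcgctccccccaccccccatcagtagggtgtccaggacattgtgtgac
Dll4: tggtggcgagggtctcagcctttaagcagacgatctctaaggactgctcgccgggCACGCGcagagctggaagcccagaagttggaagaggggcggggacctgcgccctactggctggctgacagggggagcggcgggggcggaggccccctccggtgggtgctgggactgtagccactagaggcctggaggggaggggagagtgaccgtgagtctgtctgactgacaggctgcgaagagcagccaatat
Nrarp: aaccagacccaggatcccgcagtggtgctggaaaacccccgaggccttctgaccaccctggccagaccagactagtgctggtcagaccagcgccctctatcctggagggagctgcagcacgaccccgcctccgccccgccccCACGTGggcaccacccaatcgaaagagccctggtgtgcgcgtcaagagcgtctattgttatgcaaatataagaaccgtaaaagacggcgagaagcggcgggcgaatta
Jag1: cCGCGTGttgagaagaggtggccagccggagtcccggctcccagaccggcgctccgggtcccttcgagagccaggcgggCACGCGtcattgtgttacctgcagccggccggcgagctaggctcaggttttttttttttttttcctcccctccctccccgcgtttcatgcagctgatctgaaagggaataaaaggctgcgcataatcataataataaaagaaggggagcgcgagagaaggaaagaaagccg

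The window of Notch4 held AGGAAG at 3 places, starting 245, 197 and 73 bases before the start. Of 32851 windows of this length in the table, 29.5% held this motif. Dll4 had 1 CACGCG, 195 bases before the start, and Jag1 had 2, at 249 and 171 bases, in a motif that 7.62% of windows hold. Nrarp had 1 CACGTG, 108 bases before the start, which is found in 6.02% of windows. TGGGAA, found in 21.6% of windows, and CGGAAG, found in 13.6%, were in none of the 7 windows of the Notch genes. These are matches of letters and not measured binding sites.

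The embryonic groups had the same age and strain, and comparing them asked how far Notch genes belong to the vessels of the embryonic brain. All 10 genes rose in fragments (limma, adjusted p under 0.05), and for all 10 the arrays of the groups did not overlap. Over the tested genes, 66.1% were called, 28.9% as higher and 37.2% as lower in fragments. The arrays did not overlap for 76.7% of tested genes, 33.1% higher and 43.6% lower. The median difference of the 10 genes was 2.56 on the log2 scale, against -0.10 over all tested genes. The size ranged from 48.6-fold for Notch4 and 42.1-fold for Dll4 to 2.14-fold for Hey1 and 2.11-fold for Nrarp. The largest sizes depend on the processing: the mean over its probe sets, of which 2 of 3 lay at background, took Notch4 from 5.60 to 1.86 on the log2 scale, and an offset of 16 before the logarithm took Dll4 from 5.40 to 4.57, both still called. Probe sets differ in their response, so levels of different genes are not set against each other here.

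**Figure D1:**
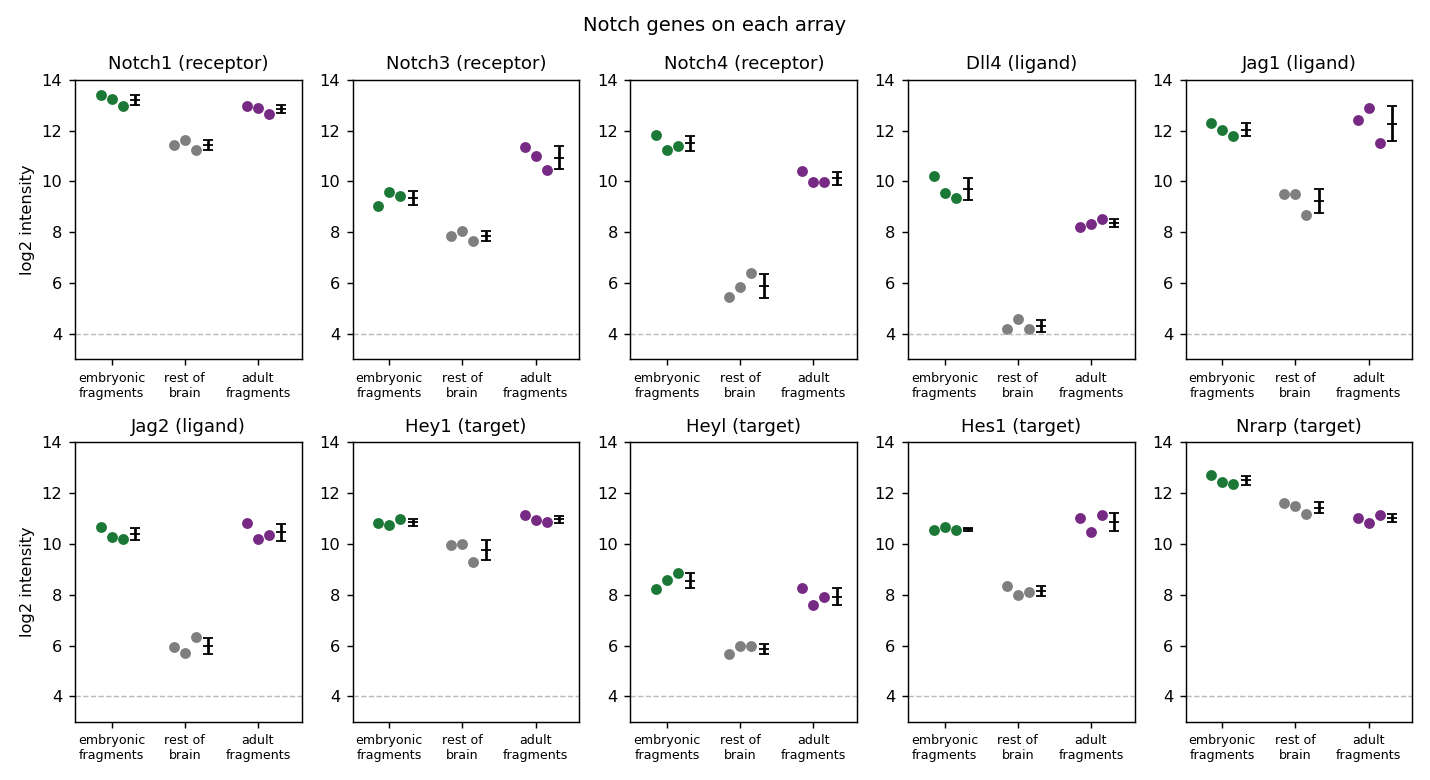
Log2 intensity (vertical axis) of the 10 Notch genes on each of the 9 arrays, by group (horizontal axis). Points are arrays, the bar beside them is the mean ± SD (n = 3), and the dashed line at 4 marks background. Rest of brain lies below embryonic fragments in every panel, and adult fragments lie below rest of brain for Nrarp.

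Between the ages of the fragments the 10 genes split. Notch3 rose in adults, 2.98-fold, and Notch4, Dll4, Nrarp and Heyl fell, by 2.58-fold, 2.56-fold, 2.83-fold and 1.56-fold. Notch1, Jag1, Jag2, Hey1 and Hes1 were not called. With 5 of 10 genes called, the count lay near the 57.1% of all tested genes called in this comparison, 27.4% higher and 29.7% lower in adults. The arrays did not overlap for 4 genes (Notch3, Notch4, Dll4 and Nrarp), against 62.6% of all tested genes, 30.3% higher and 32.4% lower. The median difference was -0.14 over the 10 genes and -0.02 over all. Age, strain and extraction kit differed together between these groups and cannot be told apart.

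**Figure D2:**
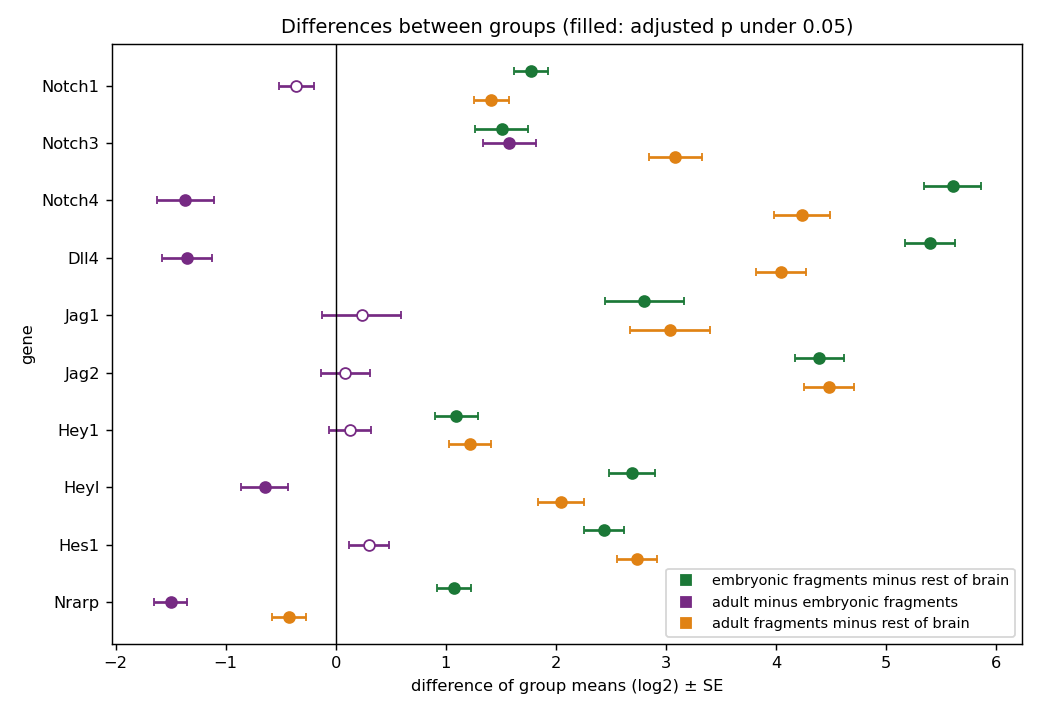
Differences of group means on the log2 scale with their standard errors (horizontal axis) for the 10 Notch genes (vertical axis) in the 3 comparisons. Filled points passed an adjusted p of 0.05; all points of embryonic fragments against rest of brain lie right of 0, while those of adult against embryonic fragments lie on both sides, from Nrarp at -1.50 to Notch3 at 1.58.

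Among the receptors, Notch4, which is made by endothelium, stood at 11.84, 11.25 and 11.37 on the arrays of embryonic fragments, at 5.44, 5.85 and 6.37 in rest of brain, and at 10.41, 9.98 and 9.98 in adult fragments. The 3 groups did not overlap, with embryonic fragments highest and rest of brain lowest. Fragments were higher by 5.60 ± 0.26 in embryos (log2 difference ± SE, limma adjusted p = 1.44e-07), and adult fragments fell by 1.37 from there (SE 0.26, adjusted p = 0.00191). Its other 2 probe sets lay under 4 on all 9 arrays, with a highest value of 2.77, and say nothing of direction. Averaging all 3 probe sets shrank the fall with age to 0.44, still called.

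Notch1, a receptor of endothelium and also of neural progenitors, had 13.38, 13.25 and 12.98 in embryonic fragments, 11.44, 11.64 and 11.22 in rest of brain and 12.98, 12.89 and 12.67 in adult fragments. Fragments of both ages lay above rest of brain, and the lowest embryonic and the highest adult fragment array had the same value after rounding. The difference of embryonic fragments from rest of brain was 1.77 ± 0.16 (3.41-fold, adjusted p = 1.03e-05). Between the ages it was -0.36 ± 0.16 and not called (adjusted p = 0.0810). A dimmer probe set of Notch1 gave -0.87 ± 0.19 between the ages and was called (adjusted p = 0.00412), as did leaving out embryonic fragments replicate 3 with the first probe set (-0.47, adjusted p = 0.0464).

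Notch3, the receptor of mural cells, was at 9.05, 9.57 and 9.42 in embryonic fragments, at 7.85, 8.03 and 7.64 in rest of brain and at 11.34, 10.99 and 10.44 in adult fragments. This is the order rest of brain, embryonic fragments, adult fragments, with no overlap between neighbours. The step from rest of brain to embryonic fragments was 1.51 ± 0.24 (adjusted p = 4.71e-04), and the step from embryonic to adult fragments was 1.58 ± 0.24 (adjusted p = 5.51e-04). The probe set's identifier marks probes shared with other transcripts. The other Notch3 probe set, dimmer and under 4 on 2 arrays of rest of brain, had steps of 1.40 ± 0.56 and 1.42 ± 0.56 and was called for neither (adjusted p = 0.0532 and 0.0575).

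Mural markers beside Notch3 differed by cell type. Of 10 pericyte markers, Vtn and Rgs5 were higher and Kcnj8, Foxf2 and Mcam lower in adults. The mean over the list was 12.22 to 12.40 in embryonic and 12.27 to 12.31 in adult fragments. In rest of brain it was 8.68 to 9.27, above background, with Rgs5 at 12.30. The part of this signal in the differences of Notch3 and Heyl from rest of brain was not tested. Of 9 smooth muscle markers 8 were higher in adults and Smtn was lower. Their mean was 6.50 to 6.81 in embryonic fragments, 10.08 to 10.47 in adult fragments and 4.19 to 4.49 in rest of brain. Cnn1, Lmod1 and Pln lay under 4 on every embryonic array, and Pln, the regulator of the calcium pump, reached a level at least 241-fold higher in adults. The part of smooth muscle in the Notch3 difference was not tested. With each array centred on its mean of pericyte markers, an alternative chosen after seeing the data, Notch3 differed by 1.60 between the ages (adjusted p = 1.84e-04). The mean of these markers was 12.31 in embryonic and 12.29 in adult fragments, so this centring could change the difference by little. It is no test of cell content, and no centring on smooth muscle markers was made.

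Among the ligands, Dll4, the ligand of sprouting and arterial endothelium, stood at 10.21, 9.55 and 9.36 in embryonic fragments, 4.18, 4.59 and 4.16 in rest of brain and 8.21, 8.32 and 8.51 in adult fragments. Rest of brain lay just above background on every array, and no groups overlapped. Embryonic fragments were higher than rest of brain by 5.40 ± 0.23 (adjusted p = 7.66e-08). Adult fragments fell by 1.35 against embryonic ones (SE 0.23, adjusted p = 9.70e-04), and the other Dll4 probe set fell by 1.68 (SE 0.17, adjusted p = 5.04e-05). That probe set was under 4 on every array of rest of brain.

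Jag1, a ligand made by endothelium and smooth muscle, had 12.30, 12.02 and 11.79 in embryonic fragments, 9.51, 9.51 and 8.69 in rest of brain and 12.43, 12.88 and 11.51 in adult fragments. Both kinds of fragments lay above rest of brain, and adult replicate 3 was the lowest of all fragment arrays. Embryonic fragments were higher than rest of brain by 2.80 ± 0.36 (adjusted p = 1.23e-04). Between the ages the difference was 0.23 ± 0.36 (adjusted p = 0.619), and a dimmer probe set gave -0.64 ± 0.32 (adjusted p = 0.120), so the probe sets differed in sign. A further Jag1 probe set lay under 4 on all arrays.

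Jag2, a ligand also found in arterial endothelium, was at 10.65, 10.28 and 10.21 in embryonic fragments, 5.93, 5.69 and 6.34 in rest of brain and 10.84, 10.21 and 10.35 in adult fragments. The fragments of the ages overlapped, and all 6 lay far above rest of brain. The difference from rest of brain was 4.39 ± 0.22 in embryonic fragments (21.0-fold, adjusted p = 2.70e-07), and 5.72 ± 0.38 with the other probe set, which was under 4 on 1 array of rest of brain. Between the ages the difference was 0.09 ± 0.22 (adjusted p = 0.783), and the other probe set gave -0.14 ± 0.38.

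**Figure D3:**
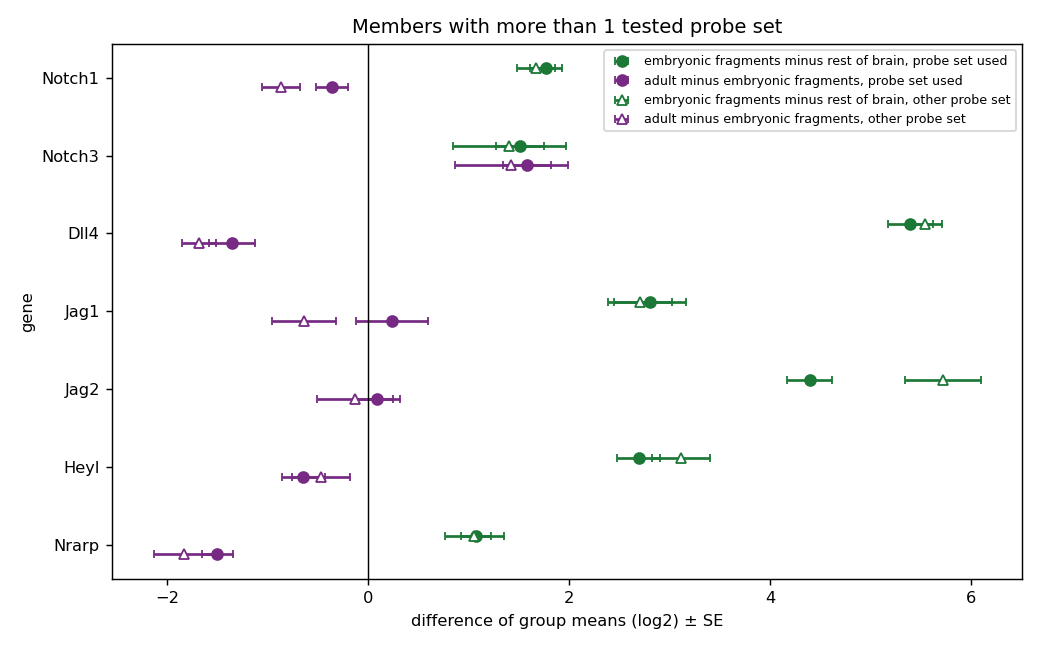
Differences on the log2 scale with their standard errors (horizontal axis) for the 7 Notch genes with more than 1 tested probe set (vertical axis). Circles are the probe set used and triangles the other one; the 2 probe sets lie on the same side of 0 in all cases but Jag1 and Jag2 between the ages, where no probe set was called.

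Differences within an array remove what is common to all genes of that array. Jag1 minus Dll4 was 2.09, 2.47 and 2.44 in embryonic and 4.22, 4.56 and 2.99 in adult fragments, a shift of 1.59 between the group means. Notch3 minus Notch4 was -2.80, -1.69 and -1.95 in embryonic and 0.93, 1.01 and 0.46 in adult fragments, a shift of 2.95. The sign of such a difference depends on the probes, and the shift alone is read here. With the probe sets used, the arrays did not overlap for either pair. Both shifts had p = 0.10 in an exact 2-sided permutation test, the smallest that 3 against 3 arrays allow, with 2 pairs compared. For Notch3 minus Notch4 this outcome was fixed, since Notch3 alone rose and Notch4 alone fell without overlap. That pair adds no evidence to the single genes, and Jag1 minus Dll4 holds the fall of Dll4 given above. With the other tested probe sets, an alternative chosen after seeing the data, Notch3 minus Notch4 shifted by 2.79 and Jag1 minus Dll4 by 0.71 to 1.92. The shift of 0.71, with the dimmer Jag1 probe set, came from overlapping arrays, since adult replicate 3 lay below every embryonic array.

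Among the target genes, Nrarp, the feedback inhibitor that promotes loss of the intracellular part of Notch, was at 12.70, 12.45 and 12.38 in embryonic fragments, 11.60, 11.52 and 11.19 in rest of brain and 11.04, 10.84 and 11.15 in adult fragments. Embryonic fragments stood above the other 2 groups, which lay close to each other. The difference of embryonic fragments from rest of brain was 1.07 ± 0.15 (adjusted p = 2.31e-04), and adult fragments fell by 1.50 against embryonic fragments (SE 0.15, adjusted p = 5.30e-05). The other probe set fell by 1.84 (SE 0.30, adjusted p = 8.19e-04).

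Heyl, a repressor found in smooth muscle and pericytes, was at 8.24, 8.59 and 8.86 in embryonic fragments, 5.65, 5.98 and 5.98 in rest of brain and 8.26, 7.59 and 7.89 in adult fragments. The highest adult array lay just above the lowest embryonic one. Embryonic fragments were higher than rest of brain by 2.69 ± 0.21 (adjusted p = 4.77e-06). Adult fragments fell by 0.65 against embryonic ones (SE 0.21, adjusted p = 0.0291), a call that was lost without embryonic fragments replicate 2 or 3 or adult fragments replicate 2 or 3 and under 6 other settings, with adjusted p of 0.0584 to 0.195. The other tested probe set gave -0.47 ± 0.29 (adjusted p = 0.195), and a further one lay under 4 on all arrays.

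Hes1, a repressor that Notch switches on in many tissues, had 10.54, 10.66 and 10.55 in embryonic fragments, 8.36, 7.97 and 8.10 in rest of brain and 11.04, 10.47 and 11.14 in adult fragments. Fragments of either age stood above rest of brain and overlapped with each other. The difference of embryonic fragments from rest of brain was 2.44 ± 0.18 (5.42-fold, adjusted p = 3.61e-06). Between the ages it was 0.30 ± 0.18 (adjusted p = 0.201), and leaving out adult fragments replicate 2 gave a called 0.50 (adjusted p = 0.0176).

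Hey1, an arterial repressor that neural cells make as well, was at 10.82, 10.74 and 10.99 in embryonic fragments, 9.95, 10.01 and 9.30 in rest of brain and 11.13, 10.94 and 10.85 in adult fragments. The ages overlapped, and both stood above rest of brain. Embryonic fragments were higher by 1.09 ± 0.19 (adjusted p = 9.03e-04), and adult and embryonic fragments differed by 0.13 ± 0.19 (adjusted p = 0.617). Hey1 and Hes1 had a single probe set each.

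Adult fragments against rest of brain share arrays with both comparisons above, and the groups differ in tissue, age, strain and extraction kit at once, so these values stand beside the others as a description of the order of levels. Higher in adult fragments were 9 of the 10 genes and Nrarp was lower, with no overlap for any, where 33.1% of tested genes were called higher, 42.9% lower, 76.0% in either direction, and 79.9% did not overlap, 34.9% higher and 45.0% lower. The largest differences were those of Jag2 (22.3-fold), Notch4 (18.8-fold) and Dll4 (16.5-fold). Nrarp fell by 0.43 (SE 0.15, adjusted p = 0.0297), with a gap of 0.04 between the nearest arrays. Leaving out replicate 1 or 2 of rest of brain, or replicate 1 or 2 of adult fragments, ended this call, as did cyclic loess or a replicate block (adjusted p = 0.0551 to 0.117).

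The other genes of the pathway formed 6 lists by role with 65 genes. Of 54 tested, 19 rose and 22 fell in embryonic fragments against rest of brain, with a median of -0.08, where 28.9% of all tested genes rose and 37.2% fell. Between the ages 17 rose and 13 fell in adults, with a median of 0.19, where 27.4% of all tested genes rose and 29.7% fell. The counts of the single lists below stand against the same shares and are a description of each list. Among the other receptors and ligands none was higher and 4 of 6 were lower in embryonic fragments. Dll3, a ligand-like protein that inhibits Notch, was at least 22.5-fold lower, since fragments lay under 4 on every array. Dner, a ligand-like protein of neurons, fell by 5.43 (SE 0.35, adjusted p = 1.18e-06). Notch2 was at 10.75 ± 0.51 in embryonic fragments and 11.36 ± 0.14 in rest of brain and not called (adjusted p = 0.252). Between the ages, Dll1, a ligand of neural progenitors and of arteries, was 4.01-fold higher in adults (SE 0.16 on the log2 scale, adjusted p = 1.15e-05). Its level was highest in rest of brain (mean 9.73, against 6.75 in embryonic and 8.76 in adult fragments), and both kinds of fragments were called lower. Notch2 was higher in adults by 1.26 ± 0.44 (adjusted p = 0.0361), at 12.01 ± 0.95, and its arrays overlapped between the ages. The non-canonical ligand Dlk1 was at least 25.5-fold lower in adults. Dlk1 stood at 8.11, 7.18 and 10.73 in embryonic fragments and under 4 on every adult array. Leaving out embryonic fragments replicate 3 or 2, a choice made after seeing the data, turned its bound into 12.5-fold or 42.8-fold. Astrocyte markers had means of 7.35 to 8.85 in embryonic fragments, 11.76 to 12.36 in rest of brain and 9.80 to 10.59 in adult fragments, with 4 of 6 higher and 2 lower in adult than in embryonic fragments. Choroid plexus and ependyma markers had means of 6.62 to 7.68, 8.40 to 8.72 and 9.74 to 9.80, with 4 of 5 higher in adult than in embryonic fragments. The part of these cells in the adult rises of Dll1 and Notch2, and of Aph1b and Tle2 below, was not tested.

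Glycosyltransferases set how receptors respond to ligands. Of 6, 3 rose and 2 fell in embryonic fragments, with Eogt, which adds N-acetylglucosamine to EGF repeats, higher by 6.34 ± 0.17 (adjusted p = 6.07e-09), the fringe enzyme Mfng higher by 2.42 ± 0.19 and Rfng lower, at -1.02 ± 0.15. As for Notch3, the probe set identifiers of Eogt, Dner, Dlk1, Maml1, Hdac2, Kat2b, Hes5 and Hes6 mark probes that other transcripts may share. The part of such transcripts in their differences was not tested. Between the ages Mfng fell by 1.48 (SE 0.19, adjusted p = 2.39e-04) and Rfng fell by 0.59 in adults, and Poglut1, which adds glucose, was higher by 0.43 ± 0.16 (adjusted p = 0.0466). Of 8 proteases and gamma-secretase subunits 5 rose and 1 fell in embryonic fragments. Furin, which cuts the receptor during its passage to the surface, was higher by 1.89 ± 0.22, Adam17 by 1.75 ± 0.14, and Aph1b, a subunit of gamma-secretase, fell by 2.74 (SE 0.29). In adult against embryonic fragments 3 of the 8 were higher, led by Aph1b at 2.27 ± 0.29 and Psen2, a catalytic subunit, at 1.47 ± 0.27, and none was lower.

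**Figure D4:**
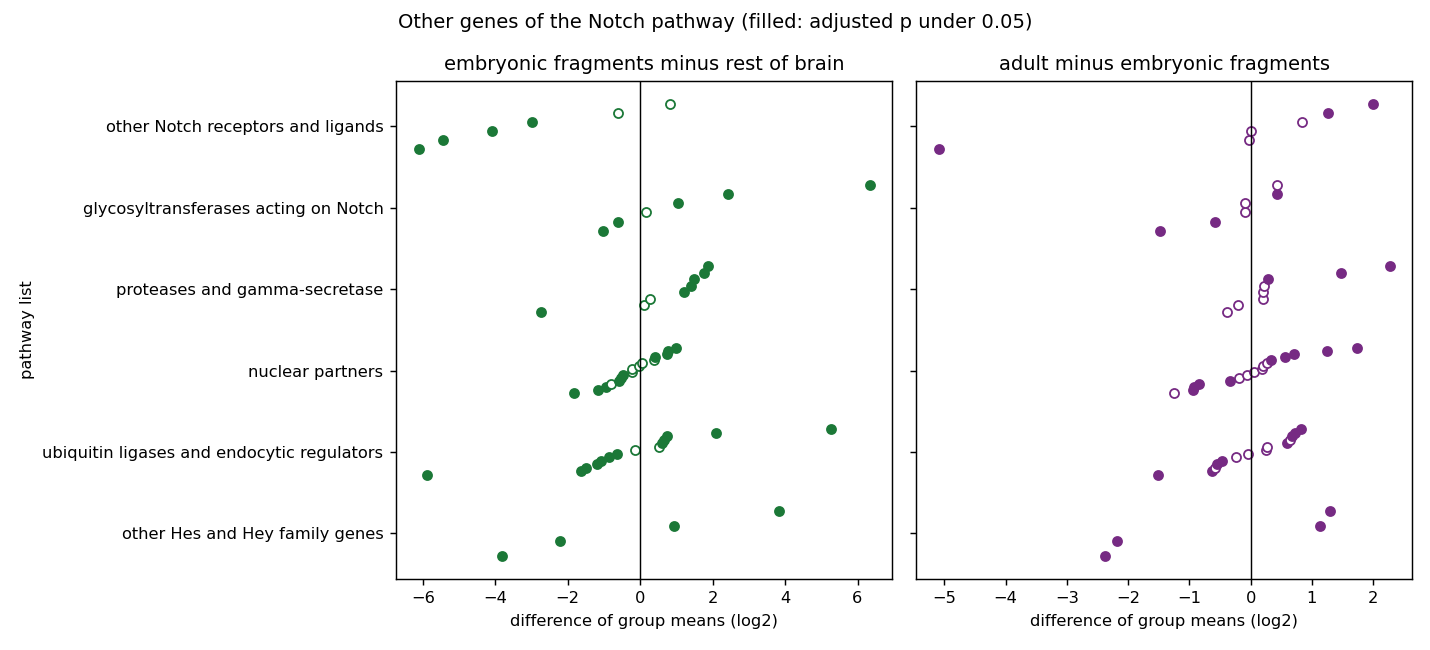
Differences of group means on the log2 scale (horizontal axis) for the 54 tested genes of the 6 pathway lists (vertical axis), in embryonic fragments against rest of brain (left) and adult against embryonic fragments (right). Each point is a gene and filled points passed an adjusted p of 0.05; points stand on both sides of 0, from Dll3 at -6.12 to Eogt at 6.34 on the left, and fitted values such as that of Dll3 lean on a group at background. The probe set identifier of Eogt marks probes that other transcripts may share.

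Of 16 nuclear partners 4 were higher and 6 lower in embryonic fragments, near the 28.9% and 37.2% of all tested genes. Rbpj itself was at 11.53 ± 0.31 in embryonic fragments, 11.75 ± 0.10 in rest of brain and 11.71 ± 0.02 in adult fragments, and it was called in no comparison (adjusted p = 0.248 to 0.855). The coactivator Maml1 was higher by 0.99 ± 0.12, while the corepressor Tle2 fell by 1.81 and the deacetylase Hdac2 fell by 1.15. In adults Tle2 (1.73 ± 0.29) and the acetyltransferase Kat2b (1.25 ± 0.16) were higher and Kat2a fell by 0.94, among 5 higher and 4 lower genes. Of 14 ubiquitin ligases and endocytic regulators 5 were higher and 7 lower in embryonic fragments, against the same 28.9% and 37.2%. Dtx1, a Deltex protein and a Notch target of neural cells, fell by 5.88 (SE 0.29), Dtx4 fell by 1.63, and Dtx3l rose by 5.27 ± 0.21 with rest of brain under 4 on 1 array. Between the ages 4 of the 14 rose and 4 fell, where 27.4% and 29.7% of all tested genes did, among them Fbxw7, which marks the Notch intracellular part for breakdown, at 0.83 ± 0.14, Dtx3l at 0.73 ± 0.21 and Neurl1a at -1.51 ± 0.24.

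Of the other Hes and Hey family genes 4 of 8 with a probe set were tested. Bhlhe40 and Hey2 were higher and Hes5 and Hes6 lower in fragments, in embryos against rest of brain and in adults against embryos. Hey2, the arterial partner of Hey1, was at 9.77 ± 0.16 in embryonic fragments, 8.83 ± 0.33 in rest of brain and 10.91 ± 0.27 in adult fragments, higher by 0.94 ± 0.20 (adjusted p = 0.00269) and 1.14 ± 0.20 (adjusted p = 0.00129) in these steps. Bhlhe40, a repressor that responds to hypoxia and the clock, was higher by 3.83 ± 0.27 and 1.29 ± 0.27. Hes5, the Notch target of neural progenitors, was at 11.95 ± 0.21 in rest of brain, 8.13 ± 0.56 in embryonic and 5.76 ± 0.64 in adult fragments. It fell by 3.83 (adjusted p = 1.50e-05) and by 2.37 (adjusted p = 5.51e-04). In adult fragments against rest of brain, 19 of the 54 pathway genes were higher and 23 lower, near the 33.1% and 42.9% of all tested genes. Psen2 was higher by 2.96 ± 0.27 and the corepressor Spen was lower, at -2.04 ± 0.48. The mean over 10 markers of radial glia and progenitors had the same order as Hes5. It was 11.87 to 12.02 in rest of brain, 6.78 to 7.76 in embryonic and 4.67 to 4.95 in adult fragments. All 10 were lower in embryonic fragments than in rest of brain. Between the ages 6 were lower in adults, Slc1a3 was higher and 3 were not called. The part of these cells in the Hes5 values was not tested.

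Endothelial markers are given beside the falls of Notch4, Dll4 and Nrarp. Of the 12 endothelial markers 3 were higher in adults (Pecam1, Emcn and Erg), 3 were lower (Cdh5, Kdr and Tie1) and 6 were not called, with a median difference of 0.24. Centred on the mean of these markers, an alternative chosen after seeing the data, Notch4 fell by 1.40 from embryonic to adult fragments (adjusted p = 7.18e-04), Dll4 fell by 1.38 (adjusted p = 6.89e-04) and Nrarp fell by 1.53 (adjusted p = 8.60e-05). The endothelial mean was 12.72 in embryonic and 12.74 in adult fragments, so this centring could change the falls by little and is no test of cell content. Markers of dividing cells were lower in adults for 6 of 6 genes, with a mean of 11.45 to 11.51 in embryonic and 4.90 to 5.24 in adult fragments, and those of veins for 4 of 5. Of 7 artery markers 1 was higher in adults (Bmx), 2 were lower (Gja4 and Unc5b) and 4 were not called. The artery mean was 11.88 to 12.10 in embryonic and 11.96 to 12.03 in adult fragments. The part of dividing, venous or arterial cells in the falls was not tested.

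**Figure D5:**
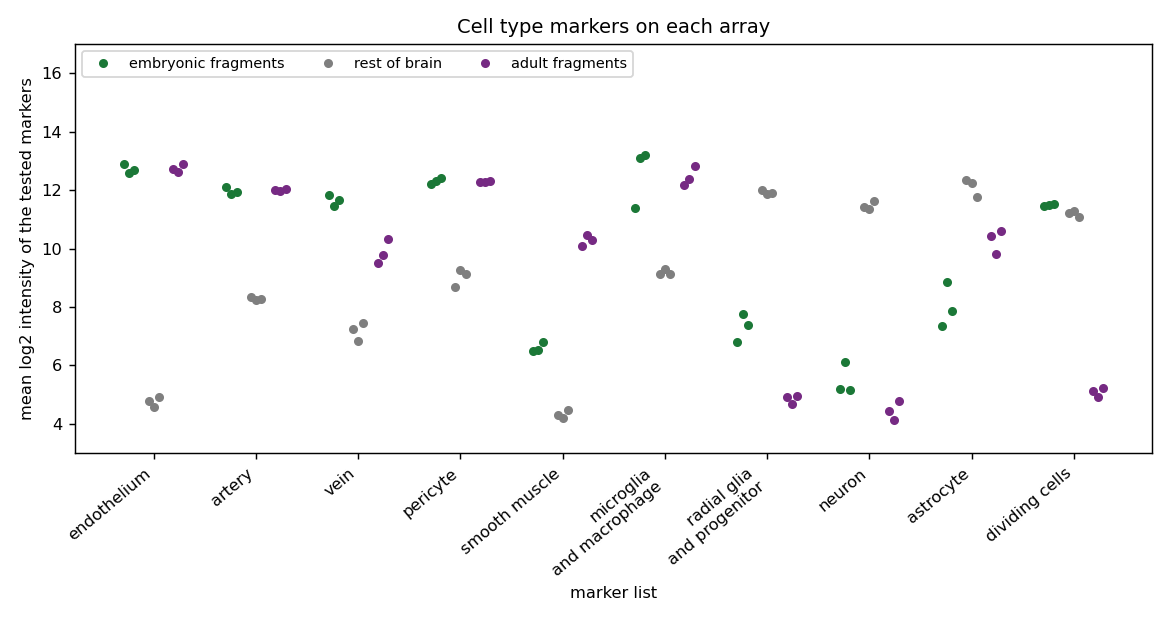
Mean log2 intensity of the tested markers (vertical axis) of 10 marker lists (horizontal axis) on each of the 9 arrays, with a point per array. Endothelial and pericyte means of embryonic and adult fragments lie together near 12 to 13, smooth muscle means are 6.50 to 6.81 against 10.08 to 10.47, and means of dividing cells are 11.45 to 11.51 against 4.90 to 5.24.

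The genes whose pattern was most like that of 2 of the members were found by the Euclidean distance between 9 values, each gene less its own mean. For Notch3 they were Nek7 (distance 0.503), a kinase, Wtip (0.644) and Sgk3 (0.687), a kinase, where the median over all tested genes was 4.47. Nek7 was at 10.64 ± 0.17 in rest of brain, 12.30 ± 0.28 in embryonic and 13.91 ± 0.17 in adult fragments. For Dll4 they were Sh3tc1 (0.745), which lay at background in rest of brain, Rhoj (0.791), a small GTPase of endothelium, and Casp8 (0.833), a protease of cell death, against a median of 7.28. Among the other 9 Notch genes, Notch4 was nearest to Dll4, at rank 10 and a distance of 1.02, and Nrarp was farthest, at 6.25. Hes1 was nearest to Notch3, at rank 495 and a distance of 1.94. These distances describe 9 arrays in 3 groups and carry no test.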

How the data were processed

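RNA of 9 mouse brain samples was extracted with a micro kit for embryonic and a mini kit for adult tissue, amplified and labelled with biotin, per the labels' protocols. The deposited values are log2 intensities per probe set. The submitters' processing notes name GCRMA 2.6.0 and R 2.4.1, which correct background by base composition and make the arrays' distributions equal, so that a change in RNA per cell over all genes cannot be seen. Scanner files were not analysed here. Precision is limited by the small number of arrays. Each limma p-value weighs a difference against a spread taken over the 9 arrays and moderated over all tested genes. It speaks for these samples alone.

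One gene is named for 34958 of 45101 probe sets in the platform annotation, several for 932 and none here for 9211. A gene was tested where its brightest probe set reached 4 on 3 arrays or more. All 9 arrays entered a single limma fit (version 3.58.1, R 4.3.3) with moderated 2-sided tests, Benjamini-Hochberg adjustment over 12009 genes and a threshold of 0.05. The fitting script was tested on simulated data. Alternatives changed the scaling, the filter, the probe set, the model and the arrays used. Deviations from the group means correlated between embryonic arrays of equal replicate number (r = 0.19 to 0.22 over genes). The labels do not name pairs, and the main fit and its p-values use no pairing. Pairing entered only an alternative with a replicate block. For Hey1 in embryonic fragments against rest of brain, the limma adjusted p was 9.03e-04 in the main fit, 0.00351 with these 2 groups alone and 0.0138 with the block added. Adult arrays did not pair with embryonic fragments (r = -0.08 to 0.21) or rest of brain (r = -0.09 to 0.13).

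Named were all members; from each pathway list, the 2 called genes with the largest difference in the commoner direction and the 1 largest in the other; and the 3 genes nearest to Notch3 and Dll4. Rbpj, Hes6, Notch2 in embryonic fragments against rest of brain and most single markers were named after their values were seen. Members and lists were chosen with earlier results of these data known. One label of rest of brain replicate 3 words the embryonic day otherwise, and its title was followed.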

Additional observations from a re-analysis of the deposited data

How the results depend on the processing

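Of the members' values under an alternative, 225 of 227 kept their direction and their side of the threshold in embryonic fragments against rest of brain, 224 of 247 in adult against embryonic fragments and 221 of 227 in adult fragments against rest of brain. Filters, a fit of the 2 groups alone, the block, the moderation and leaving out an array of the group not compared cannot change a difference. There only the side of the threshold could move, so these counts overstate how far the directions were tried. The 247 also hold the centrings on endothelial and pericyte markers, which could change a difference by little. The 2 lost in the first comparison are those of Notch3 without its shared probe set. Between the ages 6 uncalled values turned their sign. Jag1 became -0.24 with the mean over its probe sets and -0.64 with another probe set, and ran from -0.070 to 0.62 when single replicates were left out, below 0 without adult fragments replicate 2. Jag2 became -0.024 with the mean over its probe sets and -0.14 with another, and ran from -0.10 to 0.22, below 0 without adult fragments replicate 1. The cause was not tested. The replicate block was fitted on the 2 groups compared alone. In embryonic fragments against rest of brain such a fit called 8492 genes without the block and 8333 with it, against 7939 over all 9 arrays, and all 10 members each time. Between the ages, where numbers did not pair the arrays, it called 6167 genes without the block and 5754 with it, against 6854. Heyl was lost already without the block (adjusted p = 0.0656, with it 0.127), and Notch1 was called with the block alone (adjusted p = 0.0897 without and 0.0415 with it). Cyclic loess moved the median of all genes in adult fragments against rest of brain from -0.17 to -0.03. Signal near 4, as for Dll4 in rest of brain, is little above background and limits the size of its difference.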
